A study of Mus musculus with 12 samples.

Results

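Cells make cholesterol from acetyl-CoA, take it up, store it as esters and export it, and 32 genes for these steps were followed in RNA-seq of cultured mouse mammary tumour cells in which Nedd4, a ubiquitin ligase, had been targeted. The genes were taken by name and textbook role, with earlier results of these data known, from 56691 genes in each deposited table. They comprised 8 enzymes of the mevalonate and isoprenoid steps, 11 enzymes from squalene to cholesterol, 4 regulators of the transcription factor SREBP2, 4 genes of intracellular sterol transport and esterification, and 5 genes of the LXR receptors and efflux. The lines were EMT6 and 4T1, carcinomas that grow in BALB/c mice. In each line, knockout cells (KO by genotype label, sgNEDD4 in the design text, where sg stands for single guide) were compared with control cells (WT by genotype label), with n = 3 libraries per group and 12 libraries in all. All cells grew in DMEM with serum, and no treatment other than the guide is given. The sources used here do not give the guide's position, whether KO cells are a clone or a pool, or whether libraries stem from separate cultures, so p-values measure only the spread between these libraries, which may be technical.

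Mammalian cells regulate cholesterol by end-product feedback. When membranes of the endoplasmic reticulum are poor in sterol, the escort protein SCAP carries SREBP2 to the Golgi, where it is cleaved, and the released fragment switches on nearly every enzyme of the pathway, lipoprotein receptors and its own gene. When sterol is plentiful, INSIG proteins hold SCAP back, and oxysterols activate the LXR receptors, which switch on the exporters ABCA1 and ABCG1. The INSIG1 gene is itself an SREBP target, whereas INSIG2 is much less dependent on SREBP.

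Promoter sequences of RefSeq (build GRCm38.p6) were found for 26 of the 32 genes. The 250 bases before the annotated start are shown, 5′ to 3′ on the gene's strand, for the synthesis enzymes with the largest changes in EMT6 KO cells in the early and the late steps (Hmgcs1 and Hsd17b7), the regulator with the largest change (Insig1) and the exporter with the largest change (Abca1). Capitals mark the sterol regulatory element TCACNCCAC that SREBP binds, the E-box CACGTG, or CCAAT, the binding letters of NF-Y, a partner of SREBP (ATTGG where it lies on the other strand). Hmgcs1 lies at chr13:119690101-119690350 (plus strand), Hsd17b7 at chr1:169969206-169969455 (minus strand), Insig1 at chr5:28071162-28071411 (plus strand) and Abca1 at chr4:53159896-53160145 (minus strand).
Hmgcs1: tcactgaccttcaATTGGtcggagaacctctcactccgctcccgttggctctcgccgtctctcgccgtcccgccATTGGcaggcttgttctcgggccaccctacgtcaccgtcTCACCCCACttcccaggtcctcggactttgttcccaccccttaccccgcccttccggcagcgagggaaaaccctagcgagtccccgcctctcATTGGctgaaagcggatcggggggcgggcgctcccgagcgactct
Hsd17b7: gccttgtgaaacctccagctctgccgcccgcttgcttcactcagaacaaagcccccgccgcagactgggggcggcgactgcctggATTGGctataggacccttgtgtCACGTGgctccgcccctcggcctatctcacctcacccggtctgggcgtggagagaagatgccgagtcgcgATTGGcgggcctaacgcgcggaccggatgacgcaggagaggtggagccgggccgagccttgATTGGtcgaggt
Insig1: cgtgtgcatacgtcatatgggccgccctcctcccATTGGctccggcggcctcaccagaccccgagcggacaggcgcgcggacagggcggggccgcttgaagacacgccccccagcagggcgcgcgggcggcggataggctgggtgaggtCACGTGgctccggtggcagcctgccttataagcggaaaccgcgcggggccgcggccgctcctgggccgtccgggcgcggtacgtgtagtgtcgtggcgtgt
Abca1: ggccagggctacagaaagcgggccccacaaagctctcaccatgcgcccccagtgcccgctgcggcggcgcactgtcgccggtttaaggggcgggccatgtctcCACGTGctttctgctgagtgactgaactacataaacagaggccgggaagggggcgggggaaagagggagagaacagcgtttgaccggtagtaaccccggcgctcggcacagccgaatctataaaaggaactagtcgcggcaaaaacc
The Hmgcs1 stretch held 1 sterol regulatory element, starting 137 bases before the start, and 3 CCAAT boxes. Hsd17b7 held 3 CCAAT boxes and 1 E-box, Insig1 held 1 of each, and Abca1 held 1 E-box only.

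Over windows from 250 bases before to 50 after the start, searched on both strands, the sterol regulatory element was found in 1 of 26 of the genes and in 1.44% of the 27025 genes in the promoter table. CCAAT was found in 15 of the 16 synthesis enzymes with a promoter (93.8%), against 41.1% of all genes. The GC box GGGCGG, the letters bound by Sp1, was found in 14 of those 16 (87.5%), against 38.2% of all genes. The E-box was found in 6 of 26 genes (23.1%), against 8.09% of all genes. These matches describe letters in a fixed window, and elements with other letters or farther from the start were not searched for. The 27025 genes include genes that were not tested for expression in either line, and no share over tested genes alone was taken. No promoter was found for the enzymes Fdps, Fdft1 and Sqle.

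Total counts ran from 13705612 to 19761604 per library, and levels are given as FPKM, read counts per exonic length and library total. Changes are log2 ratios of KO to control with their standard error (SE), from edgeR's quasi-likelihood test with TMM scaling, and a gene was called at an adjusted p under 0.05 over all genes tested. FPKM carries no TMM factor, so a gene's FPKM ratio can differ slightly from its fold change, mainly in 4T1. Nedd4 itself stood at 12.1, 11.5 and 12.1 FPKM in EMT6 KO cells, against 122.5, 121.4 and 116.5 FPKM in EMT6 control cells, and at 24.7, 24.9 and 25.3 FPKM in 4T1 KO cells, against 94.4, 97.6 and 93.5 FPKM in 4T1 control cells. The 4T1 KO libraries detected 20937 to 21264 genes and the 4T1 control libraries 18836 to 19017, while EMT6 KO libraries detected 18119 to 18371 and EMT6 control libraries 18014 to 18833. The part of this difference in the results was not tested. The 4 leukocyte markers summed to 0 FPKM in EMT6 and at most 0.12 FPKM in 4T1, and 3 endothelial markers to at most 0.61 FPKM. The 4 epithelial markers summed to 378 to 392 FPKM in EMT6 KO cells and 347 to 413 FPKM in EMT6 control cells, where Cdh1, the epithelial cadherin, was at most 0.02 FPKM. That sum is mostly the keratin Krt8, which was 1.2-fold higher in EMT6 KO cells (log2 change 0.26 ± 0.07), while Krt18 was 2.35-fold lower (-1.23 ± 0.07) and the adhesion molecule Epcam 3.01-fold lower (-1.59 ± 0.32). The 4 markers summed to 1310 to 1390 FPKM in 4T1 KO cells, below the 1840 to 1910 FPKM of 4T1 control cells. In 4T1 KO cells, Epcam (log2 change -1.13 ± 0.04), Krt8 (-0.79 ± 0.04) and Krt18 (-0.43 ± 0.04) were lower, and Cdh1 was not called (-0.01 ± 0.04). Of the 3 fibroblast markers, the sum was 194 to 226 FPKM in EMT6 KO cells and 157 to 178 FPKM in EMT6 control cells, nearly all of it Col1a1 with Dcn at or near 0, and 5.23 to 5.45 FPKM in 4T1 KO cells and 4.88 to 5.82 FPKM in 4T1 control cells. In bulk RNA, fewer cells of a kind and less RNA per cell cannot be told apart. The part of these markers in the results below was not tested.

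Of the 19 cholesterol synthesis enzymes, 17 rose in EMT6 KO cells and 9 in 4T1 KO cells, with median changes over the 19 of 1.10 and 0.13 on the log2 scale. Of these enzymes, 1 was called lower and 1 not called in EMT6, and 3 were called lower and 7 not called in 4T1. EMT6 KO cells had 24 of 32 genes called higher and 4 lower, where 27.9% of the 12890 genes tested were called higher and 28.2% lower. In 4T1, 14 of the 30 tested genes were called higher and 6 lower, where 28.0% of the 13313 genes tested were called higher and 29.0% lower. Abca1 and Abcg1 had too few counts to be tested in 4T1. The 4 lower calls in EMT6 were Ggps1, Npc1, Soat1 and Nr1h3, and only 1 was made without EMT6 KO replicate 2 and 2 without EMT6 control replicate 3. The median change of the genes was 0.68 on the log2 scale in EMT6 and 0.11 in 4T1, beside a median of 0.00 over all genes tested in each line. A second rule also asked for a change of at least 1.5-fold. In EMT6, 19 genes then counted as higher and 1 as lower, where 10.3% of all genes tested were higher and 11.0% lower; without EMT6 control replicate 2 the lower ones numbered 2. In 4T1, 4 genes counted as higher (Pmvk, Mvd, Tm7sf2 and Insig1), where 11.0% of all genes tested were higher and 6.5% lower, and the 6 lower genes all fell by less than 1.5-fold. That count of 4 became 3 without the low-count filter, 4T1 KO replicate 1, KO replicate 3 or control replicate 2. Called higher in both lines were 13 of the 30 genes tested in both, where 7.05% of the 12006 genes tested in both lines were. These were Acat2, Pmvk, Mvd, Fdps, Lss, Tm7sf2, Msmo1, Nsdhl, Ebp, Srebf2, Insig1, Insig2 and Nr1h2.

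**Figure D1:**
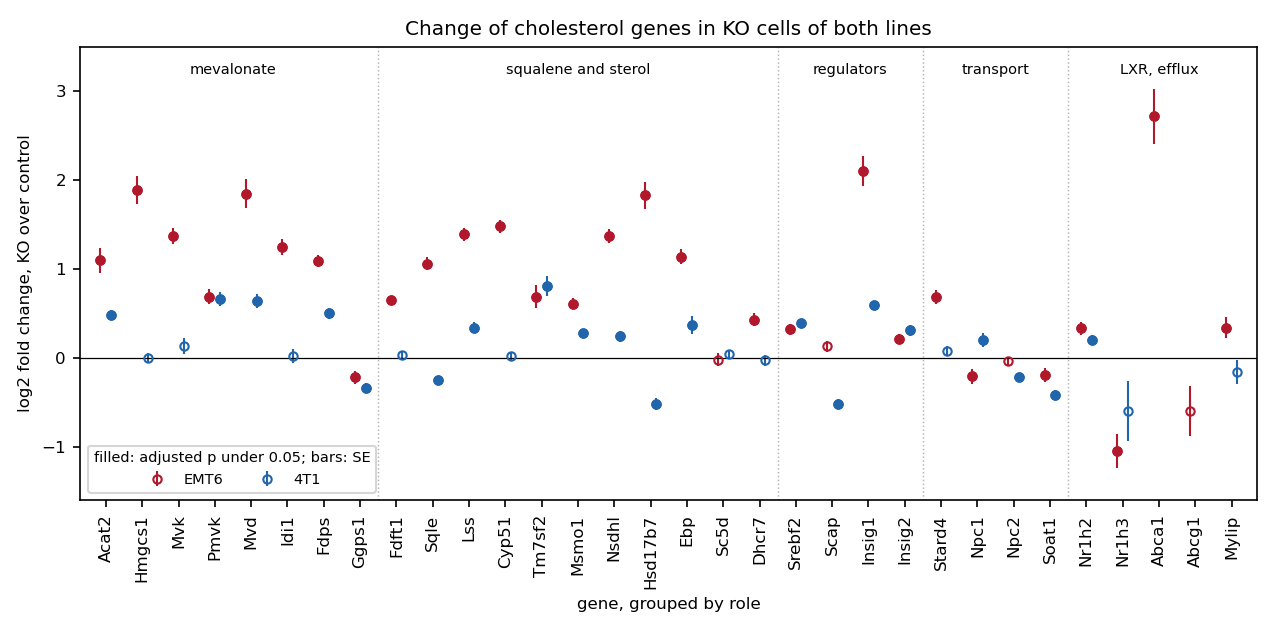
Log2 fold change of KO over control (vertical axis) for the 32 genes, ordered by role, with EMT6 in red at the left and 4T1 in blue at the right of each gene; bars are SE and filled points passed an adjusted p of 0.05. EMT6 points of the synthesis enzymes lie mostly between 0.43 and 1.89, while 4T1 points lie between -0.52 and 0.81.

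The early, mevalonate part of the pathway rose in EMT6 KO cells except at its branch to geranylgeranyl groups. There 7 of the 8 genes were called higher, each by at least 1.5-fold, and 1 lower, with a median of 1.17 on the log2 scale. Over all genes tested in EMT6, 27.9% were called higher, 10.3% higher by at least 1.5-fold, and 28.2% lower. In 4T1, 4 of the 8 were called higher, 1 lower and 3 not called. The shares over all genes tested in 4T1 were 28.0% higher and 29.0% lower. Hmgcs1, the synthase that makes HMG-CoA, stood at 116.2, 113.3 and 120.4 FPKM in EMT6 KO cells, against 32.3, 37.5 and 24.6 FPKM in EMT6 control cells. All KO libraries lay far above all control libraries, a 3.71-fold difference (log2 change 1.89 ± 0.16, edgeR adjusted p = 0.000152). In 4T1 the same gene stood at 45.7, 44.6 and 42.0 FPKM in KO cells, against 40.6, 41.7 and 43.3 FPKM in control cells, and these values overlapped (log2 change -0.00 ± 0.05, edgeR adjusted p = 0.944).

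The other early enzymes separated into those that moved in EMT6 and those that moved in both lines. Mvk, mevalonate kinase, was 2.58-fold higher in EMT6 KO cells (log2 change 1.37 ± 0.09), against a log2 value of 0.13 ± 0.09 in 4T1, which was not called. Idi1, the isomerase that makes the allylic isoprene unit, behaved alike, with 1.25 ± 0.09 in EMT6 and an uncalled 0.02 ± 0.08 in 4T1. Idi1 has near copies, and 1 of them, Idi1-ps1, had 36 to 48 counts in EMT6 KO libraries and 11 to 15 in EMT6 control libraries, so that some reads may have been split. Acat2, the thiolase of the first step, rose by 1.10 ± 0.14 in EMT6 and 0.48 ± 0.06 in 4T1, and its near copy Acat3 had at most 23 counts in a library. Mvd, the decarboxylase that yields isopentenyl diphosphate, averaged 38.6 ± 2.47 FPKM in EMT6 KO cells and 10.7 ± 2.65 FPKM in EMT6 control cells (SD, n = 3 each). In 4T1, Mvd averaged 15.6 ± 0.75 FPKM in KO cells and 9.49 ± 0.52 FPKM in control cells, a 1.56-fold rise. Fdps, which joins the units into farnesyl diphosphate, rose by 1.09 ± 0.07 in EMT6 and 0.50 ± 0.06 in 4T1.

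Pmvk, phosphomevalonate kinase, was the early enzyme with the largest change in 4T1. It stood at 18.1, 17.0 and 16.3 FPKM in 4T1 KO cells, against 9.94, 10.2 and 10.7 FPKM in 4T1 control cells, and at 25.2, 27.4 and 26.0 FPKM in EMT6 KO cells, against 15.9, 17.4 and 15.5 FPKM in EMT6 control cells. The groups were apart in both lines and the changes were of like size, with log2 values of 0.69 ± 0.08 in EMT6 and 0.66 ± 0.08 in 4T1 (edgeR adjusted p = 1.44e-06 and 4.42e-07). Ggps1, which turns farnesyl diphosphate into the geranylgeranyl diphosphate used for protein prenylation and not for sterols, was the exception. It fell by 0.22 ± 0.07 in EMT6 and by 0.34 ± 0.06 in 4T1. The EMT6 call was lost without EMT6 KO replicate 2 (-0.22), KO replicate 3 (-0.19) or control replicate 3 (-0.17), and without the low-count filter (-0.18). Ggps1 overlaps Arid4b on the opposite strand, which was not called in either line.

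Among the 11 enzymes that turn farnesyl diphosphate into cholesterol, 10 rose in EMT6 KO cells, 9 of them by at least 1.5-fold, with a median of 1.06 on the log2 scale. In 4T1 KO cells, 5 rose, 2 fell and 4 were not called, with a median of 0.04. Over all genes tested, 27.9% were called higher and 28.2% lower in EMT6, and 28.0% and 29.0% in 4T1. With at least 1.5-fold, 10.3% were higher in EMT6. Sqle, the squalene epoxidase and a rate-limiting step after mevalonate, went in opposite directions in the lines. It stood at 104.7, 103.1 and 101.2 FPKM in EMT6 KO cells, against 49.2, 54.8 and 44.8 FPKM in EMT6 control cells. In 4T1 it stood at 42.8, 44.7 and 41.5 FPKM in KO cells, against 48.2, 47.7 and 48.9 FPKM in control cells. The KO libraries thus lay above all controls in EMT6 (log2 change 1.06 ± 0.07, edgeR adjusted p = 3.97e-09) and below all controls in 4T1 (log2 change -0.25 ± 0.04, edgeR adjusted p = 4.11e-05).

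Hsd17b7, the keto-reductase of the step that strips methyl groups from the sterol ring, also changed sign. It stood at 17.0, 16.9 and 15.8 FPKM in EMT6 KO cells, against 5.19, 5.48 and 3.45 FPKM in EMT6 control cells, and at 5.88, 6.34 and 6.15 FPKM in 4T1 KO cells, against 8.46, 8.09 and 8.39 FPKM in 4T1 control cells. The groups were apart in both lines, with a 3.54-fold rise in EMT6 (log2 change 1.83 ± 0.15, edgeR adjusted p = 1.71e-05) and a 1.43-fold fall in 4T1 (log2 change -0.52 ± 0.07, edgeR adjusted p = 3.47e-07). Its partners in that step rose in both lines. Nsdhl, the dehydrogenase that removes the carboxyl group, stood at 54.8, 54.4 and 49.4 FPKM in EMT6 KO cells, against 20.9, 22.5 and 17.9 FPKM in EMT6 control cells, and at 18.9, 18.8 and 18.03 FPKM in 4T1 KO cells, against 14.6, 15.03 and 15.01 FPKM in 4T1 control cells. Its log2 changes were 1.37 ± 0.08 in EMT6 and 0.24 ± 0.06 in 4T1, and those of Msmo1, the methyl oxidase, were 0.61 ± 0.06 and 0.28 ± 0.04.

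Cyp51, the cytochrome P450 that demethylates lanosterol, had the highest KO level of the synthesis enzymes in EMT6, where it stood at 145.5, 148.3 and 139.9 FPKM, against 51.4, 57.0 and 47.3 FPKM in control cells. In 4T1 it stood at 38.9, 36.4 and 39.1 FPKM in KO cells, against 36.1, 33.6 and 37.0 FPKM in control cells. The rise in EMT6 was 2.79-fold (edgeR adjusted p = 4.8e-11), while the 4T1 groups overlapped (log2 change 0.02 ± 0.05, edgeR adjusted p = 0.695). Cyp51 overlaps Akap9 on the opposite strand, which was not called in either line (log2 values 0.07 in EMT6 and 0.12 in 4T1). Lss, which closes squalene epoxide to lanosterol, rose 2.62-fold in EMT6 and 1.27-fold in 4T1. Ebp, the sterol isomerase, rose 2.2-fold in EMT6 and 1.29-fold in 4T1. Fdft1, squalene synthase, rose by 0.65 ± 0.05 in EMT6 and was not called in 4T1 (0.03 ± 0.05); its opposite-strand neighbour Ctsb was called lower in both lines (-0.36 and -0.19).

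Tm7sf2, a sterol reductase that follows Cyp51, was the synthesis enzyme with the largest change in 4T1. It stood at 3.69, 3.27 and 3.56 FPKM in 4T1 KO cells, against 1.95, 1.68 and 2.04 FPKM in 4T1 control cells, and at 2.61, 2.55 and 2.11 FPKM in EMT6 KO cells, against 1.51, 1.52 and 1.5 FPKM in EMT6 control cells. KO libraries were higher throughout, with log2 changes of 0.69 ± 0.13 in EMT6 and 0.81 ± 0.11 in 4T1. Vps51 overlaps it on the same strand and was called higher in EMT6 (0.37 ± 0.09) but not in 4T1 (0.12 ± 0.09). The closing steps moved less in EMT6 than the other enzymes from squalene on. Dhcr7, the final reductase of the Kandutsch-Russell branch, was 1.35-fold higher in EMT6 KO cells (log2 change 0.43 ± 0.07) and not called in 4T1 (-0.03 ± 0.06). Sc5d, the sterol desaturase before it, was called in neither line, with log2 values of -0.02 ± 0.07 in EMT6 and 0.04 ± 0.05 in 4T1.

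**Figure D2:**
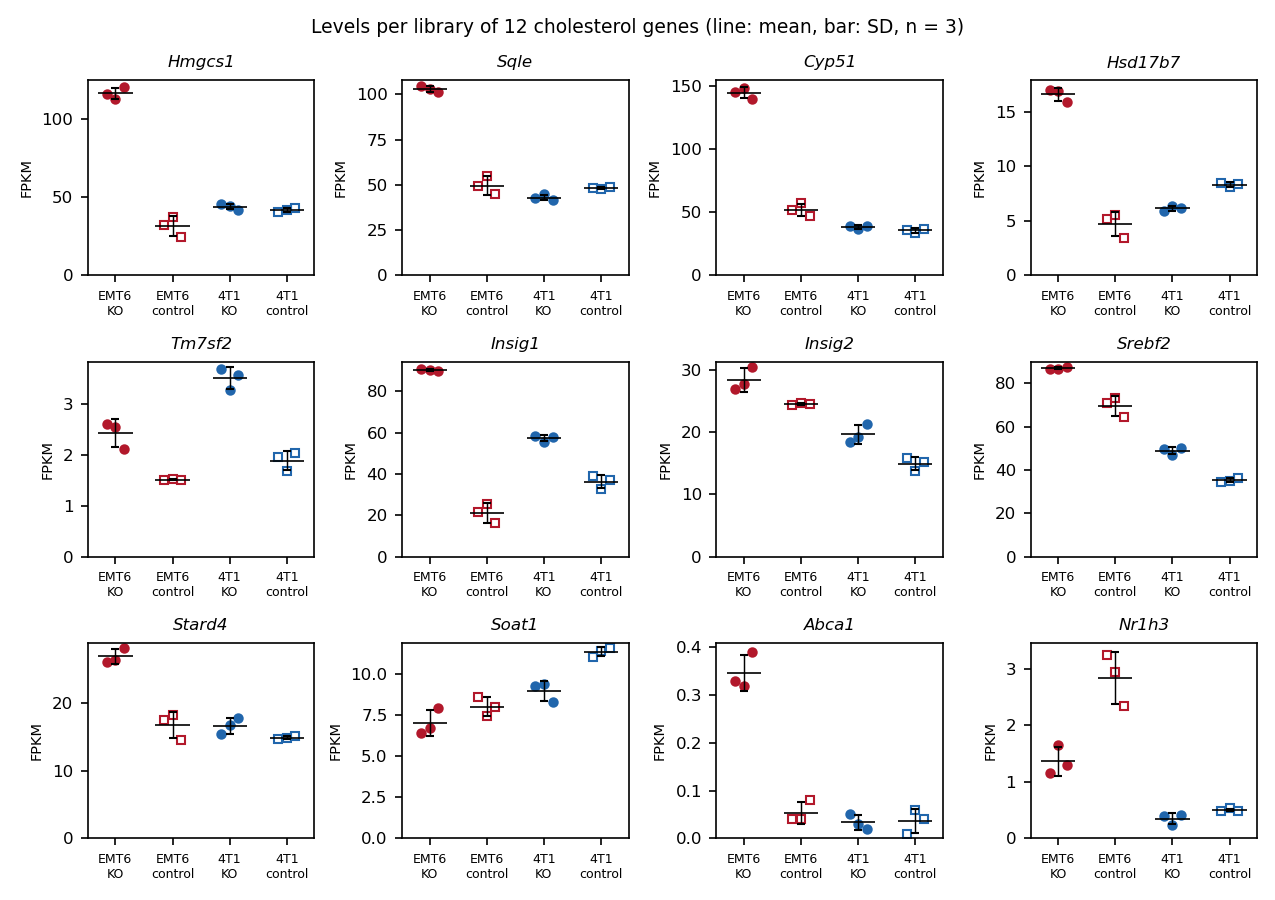
FPKM (vertical axis, from 0) in every library for 12 of the genes, with KO libraries as filled circles and control libraries as open squares, EMT6 in red and 4T1 in blue; horizontal lines are means and bars SD (n = 3). EMT6 KO libraries stand well above their controls for Hmgcs1, Sqle, Cyp51, Hsd17b7 and Insig1, while 4T1 KO libraries lie below their controls for Sqle and Hsd17b7.

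The summed FPKM of the 19 synthesis enzymes was 884.1, 876.2 and 867.5 in EMT6 KO libraries, against 408.9, 447.4 and 369.9 in EMT6 control libraries. In 4T1 it was 384.8, 376.6 and 381.0 in KO libraries, against 333.0, 317.5 and 341.0 in control libraries. The KO sums were above all control sums in both lines, and the gap was wider in EMT6. The EMT6 control libraries varied together: control replicate 2 was the highest of its group in 17 of the 19 enzymes and control replicate 3 the lowest in 16. The median coefficient of variation of an enzyme was 3.26% among EMT6 KO libraries, 10.1% among EMT6 controls, 4.30% among 4T1 KO libraries and 3.89% among 4T1 controls. In 4T1 too, control replicate 3 was the highest in 14 enzymes and control replicate 2 the lowest in 15. The enzymes within a library are therefore not independent readings of the KO effect. Without EMT6 control replicate 3, 24 of the 32 genes were still called higher in EMT6, 17 of them by at least 1.5-fold, and the changes were somewhat smaller, with 1.73 for Hmgcs1 and 1.63 for Hsd17b7.

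**Figure D3:**
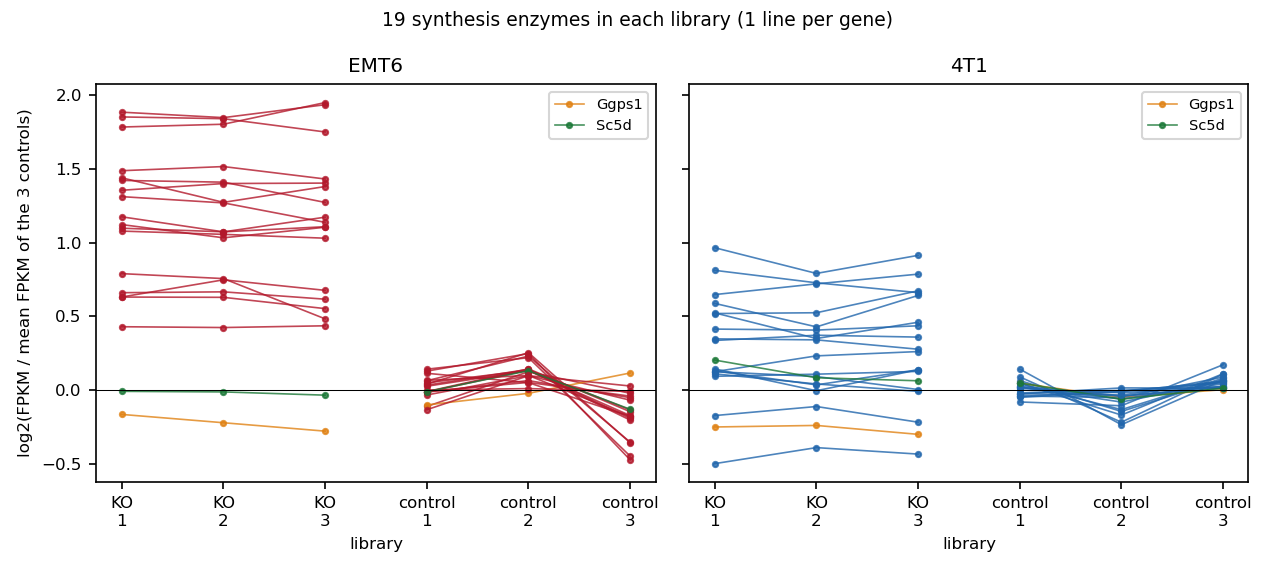
Log2 of each library's FPKM over the mean FPKM of the 3 control libraries of its line (vertical axis) for the 19 synthesis enzymes, 1 line per gene, with EMT6 at the left and 4T1 at the right and KO libraries before control libraries in each panel; Ggps1 and Sc5d are coloured apart. In EMT6, 17 enzymes lie above 0 in all KO libraries, and most lines dip together at control replicate 3.

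Of the 4 regulators, the same 3 were called higher in each line. Over all genes tested, 27.9% were called higher in EMT6, 28.0% in 4T1, and 7.05% in both lines among genes tested in both. Insig1, the sterol-responsive anchor of SCAP, stood at 90.6, 90.2 and 89.8 FPKM in EMT6 KO cells, against 21.7, 25.4 and 16.1 FPKM in EMT6 control cells. It stood at 58.6, 55.7 and 57.9 FPKM in 4T1 KO cells, against 38.9, 32.8 and 36.9 FPKM in 4T1 control cells. The groups were apart in both lines, with a 4.29-fold rise in EMT6 (log2 change 2.10 ± 0.17, edgeR adjusted p = 0.000115) and a 1.5-fold rise in 4T1 (log2 change 0.59 ± 0.05, edgeR adjusted p = 9.7e-10).

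Insig2, the INSIG gene that depends less on SREBP, changed little by comparison. It stood at 26.9, 27.7 and 30.5 FPKM in EMT6 KO cells, against 24.4, 24.7 and 24.6 FPKM in EMT6 control cells, and at 18.4, 19.2 and 21.3 FPKM in 4T1 KO cells, against 15.8, 13.8 and 15.3 FPKM in 4T1 control cells. It was called higher in EMT6 (log2 change 0.21 ± 0.06, edgeR adjusted p = 0.00805) and in 4T1 (0.31 ± 0.06, edgeR adjusted p = 0.000118), and the EMT6 call was lost without KO replicate 3 (0.16, edgeR adjusted p = 0.0516). Srebf2, which encodes SREBP2, stood at 86.8, 86.6 and 87.4 FPKM in EMT6 KO cells, against 70.9, 73.3 and 64.4 FPKM in EMT6 control cells. In 4T1, Srebf2 stood at 49.7, 47.0 and 50.3 FPKM in KO cells, against 34.7, 35.1 and 36.5 FPKM in control cells. Its groups did not overlap in either line, with a 1.25-fold rise in EMT6 and a 1.31-fold rise in 4T1. Scap, the escort protein, went down in 4T1, averaging 7.70 ± 0.60 FPKM in KO cells and 10.5 ± 0.20 FPKM in control cells (log2 change -0.52 ± 0.06), and was not called in EMT6 (0.13 ± 0.06, edgeR adjusted p = 0.0807). Messenger RNA levels do not show how much SREBP2 was cleaved, which was not measured.

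The 4 transport and esterification genes did not share a direction in either line. In each line, 1 of the 4 was called higher and 2 lower, where 27.9% of all genes tested in EMT6 were higher and 28.2% lower, and 28.0% and 29.0% in 4T1. Stard4, a cytosolic sterol carrier and SREBP2 target, stood at 26.1, 26.3 and 28.2 FPKM in EMT6 KO cells, against 17.6, 18.2 and 14.6 FPKM in EMT6 control cells, and at 15.4, 16.7 and 17.8 FPKM in 4T1 KO cells, against 14.7, 14.8 and 15.2 FPKM in 4T1 control cells. The EMT6 rise was 1.60-fold (edgeR adjusted p = 2.71e-06), and in 4T1 Stard4 was not called (log2 value 0.08 ± 0.05), except under scaling by total counts only (0.16, edgeR adjusted p = 0.014). Soat1, which esterifies cholesterol for storage, stood at 9.25, 9.38 and 8.27 FPKM in 4T1 KO cells, against 11.0, 11.4 and 11.6 FPKM in 4T1 control cells. The 4T1 groups were apart (log2 change -0.42 ± 0.06, edgeR adjusted p = 6.6e-07). In EMT6, Soat1 stood at 6.39, 6.72 and 7.92 FPKM in KO cells, against 8.59, 7.47 and 7.96 FPKM in control cells, and these values overlapped. Its EMT6 call (log2 change -0.19 ± 0.08, edgeR adjusted p = 0.0499) was lost in 9 of 15 alternatives, among them those without KO replicate 1 (-0.13), KO replicate 2 (-0.17), control replicate 1 (-0.14) or control replicate 3 (-0.20).

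Npc1 and Npc2 move cholesterol out of lysosomes after lipoprotein uptake. Npc1 stood at 3.31, 2.87 and 3.31 FPKM in EMT6 KO cells, against 3.63, 3.64 and 3.70 FPKM in EMT6 control cells, and at 2.76, 2.32 and 2.72 FPKM in 4T1 KO cells, against 2.03, 2.19 and 2.23 FPKM in 4T1 control cells. The groups were apart in both lines, lower in EMT6 KO cells (log2 change -0.21 ± 0.08, edgeR adjusted p = 0.0276) and higher in 4T1 KO cells (0.20 ± 0.08, edgeR adjusted p = 0.0499). Both calls were unstable. The EMT6 call was lost in 4 of 15 alternatives, 2 of them without KO replicate 2 (-0.15) or control replicate 2 (-0.21). The 4T1 call was lost in 9 of 15, 4 of them without KO replicate 1 (0.14), KO replicate 3 (0.17), control replicate 1 (0.15) or control replicate 3 (0.21). Npc2 was called lower in 4T1 (log2 change -0.22 ± 0.04) and not called in EMT6 (-0.04 ± 0.05), and its FPKM overlapped between KO and control in both lines.

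The LXR and efflux genes did not move as a unit. Abca1, the exporter that loads cholesterol onto apolipoprotein, was nearly silent in both lines, so its read counts are given. It had 66, 66 and 63 counts in EMT6 KO libraries, against 6, 7 and 15 in EMT6 control libraries, which is 0.33, 0.32 and 0.39 FPKM against 0.04, 0.04 and 0.08 FPKM. The EMT6 groups were apart (log2 change 2.72 ± 0.31, edgeR adjusted p = 1.56e-06). On the log2(FPKM + 1) scale, which understates the change of low genes, the change was 0.35. In 4T1 it had 9, 5 and 3 counts in KO libraries, against 2, 10 and 6 in control libraries, which was too low to test. Abcg1, the exporter to lipoprotein particles, had 27, 28 and 30 counts in EMT6 KO libraries, against 33, 32 and 58 in EMT6 control libraries. In 4T1 it had 5, 5 and 18 counts in KO libraries, against 7, 4 and 10 in control libraries. It was not called in EMT6 (log2 value -0.60 ± 0.28, edgeR adjusted p = 0.0818) unless control replicate 2 was left out (-0.77, edgeR adjusted p = 0.0387).

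Nr1h3, which encodes LXR alpha, stood at 1.15, 1.65 and 1.29 FPKM in EMT6 KO cells, against 3.25, 2.94 and 2.34 FPKM in EMT6 control cells. The KO libraries were all lower, a 2.07-fold fall (log2 change -1.05 ± 0.19, edgeR adjusted p = 0.000174). In 4T1 it stood at 0.40, 0.24 and 0.41 FPKM in KO cells, against 0.49, 0.53 and 0.49 FPKM in control cells, on 10 to 18 and 17 to 20 counts, and was not called (log2 value -0.60 ± 0.34, edgeR adjusted p = 0.133). Nr1h2, which encodes LXR beta, rose in both lines, by 0.33 ± 0.07 in EMT6 and 0.20 ± 0.06 in 4T1. Mylip, an LXR target that degrades lipoprotein receptors, averaged 4.55 ± 0.40 FPKM in EMT6 KO cells and 3.60 ± 0.40 FPKM in EMT6 control cells. Its EMT6 call (0.34 ± 0.12, edgeR adjusted p = 0.0191) was lost without KO replicate 2 (0.31), KO replicate 3 (0.30) or control replicate 2 (0.26), and in 4T1 it was not called (-0.16 ± 0.13).

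For most of the genes the KO effect was higher in EMT6 than in 4T1. The difference was tested with an interaction term for line and genotype, fitted to the 12 libraries together. Of the 30 genes tested, 20 had a higher effect in EMT6 than in 4T1 and 1 a lower, where 29.7% of the 12006 genes tested were called higher in EMT6 and 30.2% lower. Among the 19 synthesis enzymes, 15 had a higher effect in EMT6, with a median difference of 0.75 on the log2 scale. The lowest p-values belonged to Cyp51, with a difference of 1.44 (95% interval 1.27 to 1.60, edgeR adjusted p = 1.45e-12), Sqle with 1.28 (1.12 to 1.44, edgeR adjusted p = 7.65e-12), Nsdhl with 1.11 (0.91 to 1.31, edgeR adjusted p = 3.15e-09) and Hsd17b7 with 2.33 (2.01 to 2.64, edgeR adjusted p = 5.07e-09). Hsd17b7 also had the largest difference, followed by Hmgcs1 at 1.88 (1.54 to 2.21) and Insig1 at 1.49 (1.14 to 1.85).

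The 4 synthesis enzymes whose difference was not called were Pmvk at 0.01 (95% interval -0.21 to 0.23), Tm7sf2 at -0.14 (-0.48 to 0.19), Ggps1 at 0.10 (-0.08 to 0.29) and Sc5d at -0.08 (-0.25 to 0.10). The upper ends of all 4 intervals lie well below the differences of Cyp51 and Sqle. Of the regulators, Insig1 and Scap had a higher effect in EMT6, and Srebf2 at -0.09 (-0.23 to 0.05) and Insig2 at -0.13 (-0.30 to 0.05) were not called. The transcript of the factor itself was thus not shown to respond differently in the lines, while the transcripts of most synthesis enzymes were. Npc1 had the 1 called difference below 0, at -0.43 (-0.65 to -0.20, edgeR adjusted p = 0.00264). Nr1h2 at 0.11, Nr1h3 at -0.47 and Soat1 at 0.21 were not called, but Nr1h3 was by limma on log2(FPKM + 1) (-0.54), and Soat1 without the low-count filter (0.25), EMT6 KO replicate 1 (0.27) or EMT6 control replicate 1 (0.26).

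**Figure D4:**
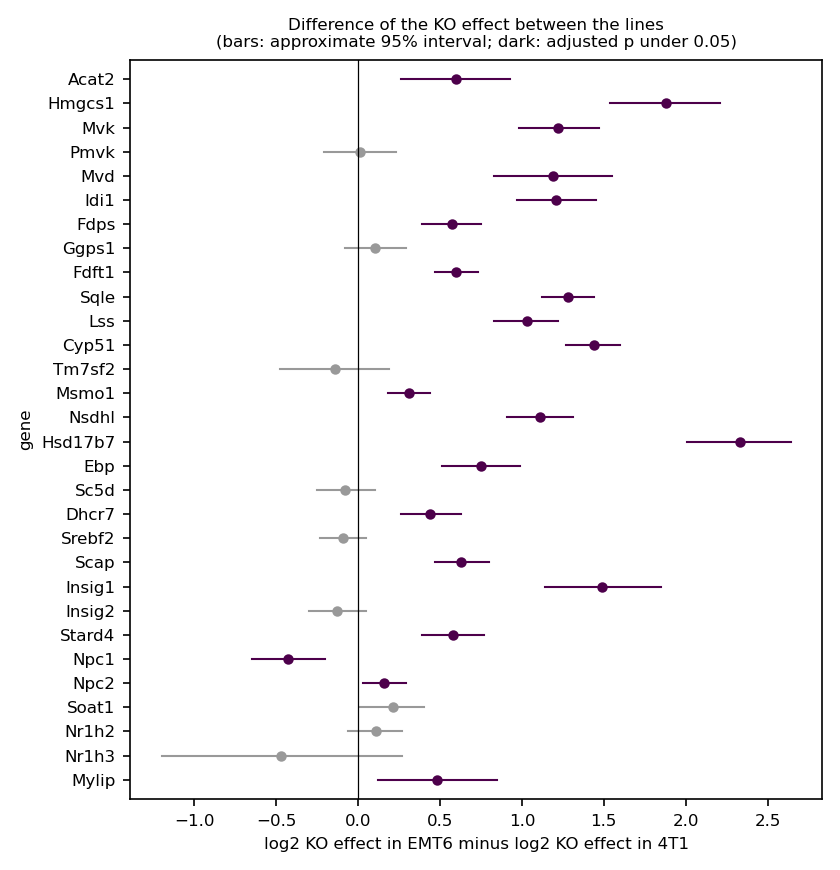
Difference of the log2 KO effect, EMT6 minus 4T1 (horizontal axis), for the 30 genes tested in both lines, with approximate 95% intervals; dark points passed an adjusted p of 0.05. Most points of the synthesis enzymes lie right of 0, up to 2.33 for Hsd17b7, and Pmvk, Tm7sf2, Ggps1 and Sc5d span 0.

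Other genes of sterol and isoprenoid biology moved to both sides in each line. Of 43 further genes, 13 of 38 tested were called higher and 8 lower in EMT6 (median 0.08), and 11 of 37 tested were called higher and 14 lower in 4T1 (median -0.09), where between 27.9% and 29.0% of all genes tested were called in each direction. The EMT6 count of 8 lower became 4 without KO replicate 1 and 5 without KO replicate 2 or KO replicate 3. Their KO effect was higher in EMT6 for 13 of 36 and lower for 10, where 29.7% of all genes tested were higher and 30.2% lower. The strongest call in EMT6 was Cyp27a1, the sterol hydroxylase that makes an oxysterol, at 0.69, 0.51 and 0.76 FPKM in KO cells, against 3.86, 3.67 and 4.55 FPKM in control cells. It fell 6.20-fold (edgeR adjusted p = 1.26e-08), and in 4T1 it had at most 1 count in a library. Rabggta, a subunit of the Rab geranylgeranyl transferase, stood at 5.40, 6.20 and 5.56 FPKM in EMT6 KO cells, against 9.98, 10.5 and 11.4 FPKM in EMT6 control cells (log2 change -0.89 ± 0.08). Its 4T1 call (-0.20 ± 0.07) was lost without 4T1 control replicate 3 (-0.13), by limma on log2(FPKM + 1) (-0.11) and under scaling by total counts only (-0.13).

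Lipa, the lysosomal lipase that frees cholesterol from lipoprotein esters, rose in both lines. It stood at 17.4, 17.7 and 18.03 FPKM in EMT6 KO cells, against 12.5, 13.0 and 13.7 FPKM in EMT6 control cells, and at 4.35, 4.18 and 4.78 FPKM in 4T1 KO cells, against 2.42, 2.13 and 2.18 FPKM in 4T1 control cells. Its log2 change was 0.44 ± 0.06 in EMT6 and 0.90 ± 0.09 in 4T1, and here the effect was lower in EMT6 (difference -0.49, edgeR adjusted p = 0.000121). Scarb1, a receptor for high-density lipoprotein, rose 1.34-fold in EMT6 and was not called in 4T1 (0.07 ± 0.06), except without 4T1 control replicate 3 (0.14) or under scaling by total counts only (0.15). Osbpl2, an oxysterol-binding protein, rose 1.58-fold in 4T1, and in EMT6 its log2 value was 0.14 ± 0.08, which was called without KO replicate 3 (0.21), without control replicate 3 (0.23) and without the low-count filter (0.18). In 4T1, 7 of 11 tested genes of the other transport, uptake and ester hydrolysis list were called higher and 1 lower, where 28.0% of all genes tested were higher and 29.0% lower. In EMT6, 3 of 10 were higher and 1 lower, where the shares were 27.9% and 28.2%, and the difference of these counts was not tested.

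Of the 10 other genes of SREBP processing and sterol sensing, 2 were called higher and 3 lower in EMT6, near the 27.9% and 28.2% of all genes tested. In 4T1, 1 was called higher and 6 lower, where 28.0% of all genes tested were higher and 29.0% lower. Tmem97, a sterol-responsive membrane protein, stood at 47.1, 46.3 and 48.0 FPKM in 4T1 KO cells, against 66.1, 69.5 and 70.6 FPKM in 4T1 control cells, with no overlap (log2 change -0.62 ± 0.05, edgeR adjusted p = 4.6e-10). In EMT6 its change was 0.15 ± 0.06, a call that was lost without KO replicate 1 (0.15), KO replicate 2 (0.15), KO replicate 3 (0.17), control replicate 1 (0.15) or control replicate 3 (0.12). Rnf139, a sterol-sensing ubiquitin ligase, fell by 0.50 ± 0.05 in 4T1 and stood at 0.16 ± 0.07 in EMT6, not called except in 3 alternatives, 1 of them without control replicate 3 (0.21). Of the 13 genes of the non-sterol isoprenoid branch, 6 were called higher and 2 lower in EMT6, and 1 higher and 6 lower in 4T1, beside the same shares over all genes. Of all 43, 5 genes were called higher in EMT6 KO cells and lower in 4T1 KO cells, and 1 the other way round. The share of all genes called in opposite directions was not counted, so these counts are not read as a trait of the list. Beside Tmem97, the 5 were Erlin2, Lpcat3, Pdss1 and Zmpste24, with log2 changes of 0.34, 0.23, 0.30 and 0.30 in EMT6 and -0.37, -0.39, -0.62 and -0.27 in 4T1. The 1 was Mbtps2, a protease that cleaves SREBP, with -0.18 ± 0.06 in EMT6 and 0.22 ± 0.05 in 4T1 (difference -0.42, edgeR adjusted p = 4.9e-05). Its EMT6 call was lost without KO replicate 1 (-0.17), KO replicate 3 (-0.17) or the low-count filter (-0.15). These genes, other than Tmem97, were named after their values were seen. Erlin2 takes part in the degradation of sterol-regulated proteins, Lpcat3 remodels phospholipids, Pdss1 makes the tail of ubiquinone and Zmpste24 trims prenylated proteins.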

How the data were processed

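The submitters' processing notes name HISAT2 2.2.1, HTSeq 0.6.1, cutadapt 1.9.1, DESeq2 and the genome GRCm38. What each tool did, and the strand setting, the sources used here do not give. The deposited tables, 1 per line, hold raw read counts per gene and FPKM for 56691 genes. All 340146 deposited FPKM values of each line were within 0.006 of those recomputed from count, library total and exonic size. The tables' coordinates do not match GRCm38. They were used to find genes that overlap the genes followed here, such as Akap9 for Cyp51. They were not used for promoters, which came from RefSeq.

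Counts were tested in R 4.3.3 with edgeR 4.0.16 (filterByExpr, TMM, robust quasi-likelihood test) per line, and the difference between the lines as an interaction over 12 libraries, with Benjamini-Hochberg adjustment over all genes tested; all tests are 2-sided. The biological coefficient of variation was 6.73% in EMT6 and 4.82% in 4T1. The chi-square of counts between replicate libraries, per degree of freedom, was 2.0 to 7.94, and no library was identical to another of its group. This does not tell separate cultures from technical repeats. A floor of 3 counts equals 0.152 to 0.219 CPM; such limits cover counting error only. An exact permutation test of 3 against 3 cannot go below p = 0.1. The sample titles and library names give no batch, so whether the libraries were processed together is not known from them. The scripts were tested on simulated counts.

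The genes and lists were chosen with earlier results of these data known. All 32 are named. Values per library are given for the largest change in each role and line, genes called in opposite directions, the 4 lowest interaction p-values, Srebf2, Insig1, Insig2, Abca1 and Abcg1, and from the other pathway genes the 4 lowest p-values per line are named. Alternatives were DESeq2 1.42.0, limma 3.58.1 (voom, and on log2(FPKM + 1)), DESeq2 size factors, scaling by total counts, no low-count filter, a minimum mean of 1 FPKM, a replicate block, all 12 libraries in 1 fit, and leaving out each library.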

Additional observations from a re-analysis of the deposited data

Results flagged for a closer look

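The KO effect was called different between EMT6 and 4T1 for 21 of the 30 genes tested in both lines (edgeR interaction, adjusted p under 0.05). Of these, 20 were higher in EMT6 and 1 lower, where 29.7% of all genes tested were higher in EMT6 and 30.2% lower. A call in either direction was thus common over all genes. Each value is the log2 effect in EMT6 minus that in 4T1. In the mevalonate steps the difference was 1.88 for Hmgcs1, 1.22 for Mvk, 1.21 for Idi1, 1.19 for Mvd, 0.60 for Acat2 and 0.57 for Fdps. From squalene on it was 2.33 for Hsd17b7, 1.44 for Cyp51, 1.28 for Sqle, 1.11 for Nsdhl, 1.03 for Lss, 0.75 for Ebp, 0.60 for Fdft1, 0.44 for Dhcr7 and 0.31 for Msmo1. Among regulators it was 1.49 for Insig1 and 0.63 for Scap. Among transport and LXR genes it was 0.58 for Stard4, 0.48 for Mylip, 0.16 for Npc2 and -0.43 for Npc1. The Npc2 call was lost in 9 of 20 alternatives, 5 of them without 4T1 KO replicate 1 (0.14), KO replicate 2 (0.15) or control replicate 1 (0.15), or without EMT6 KO replicate 3 (0.16) or control replicate 1 (0.14). The Mylip call was lost in 8 of 20, 6 of them without 4T1 KO replicate 1 (0.37), KO replicate 2 (0.46) or control replicate 2 (0.43), or without EMT6 KO replicate 2 (0.47), KO replicate 3 (0.45) or control replicate 2 (0.41). The lines also differ in Nedd4 left in KO cells, 11.9 ± 0.37 FPKM in EMT6 KO and 25.0 ± 0.30 FPKM in 4T1 KO (SD, n = 3 each). The part of that in the difference was not tested.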

How the results depend on the processing

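Of 1871 values of single genes under an alternative, 1767 kept their direction and side of the threshold, 60 lost a call, 14 gained one and 30 changed sign, all 30 of them uncalled values near 0. The cause was not tested. Members called higher numbered 24 in EMT6 (23 to 24 under other tools and settings, 22 to 24 with a library left out), 14 in 4T1 (13 to 15, and 13 to 14) and 20 for the difference between lines (18 to 22, and 18 to 21). Members called lower in EMT6, 4 in the report, numbered 2 by limma on log2(FPKM + 1), 1 without the low-count filter and 1 to 4 with a library left out; with at least 1.5-fold they numbered 1 to 2 with a library left out. Other pathway genes called lower numbered 9 in 4T1 by limma on log2(FPKM + 1), against 14, and in EMT6 4 without the low-count filter and 4 to 9 with a library left out, against 8. For the difference between lines, 2 members were lower by limma on log2(FPKM + 1), against 1. Scaling by total counts shifted the median of all genes in 4T1 by 0.08.

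The sign changes in 4T1 were these. Hmgcs1 was 0.0002 by DESeq2 and with DESeq2 size factors, 0.02 with genes of at least 1 FPKM, 0.07 by limma on log2(FPKM + 1) and by total counts, and -0.04 to 0.03 with a library left out. Without the low-count filter, Idi1 was -0.01, Cyp51 -0.01 and Fdft1 0. With a library left out, Idi1 ran over -0.02 to 0.06, Cyp51 over -0.003 to 0.05 and Sc5d over -0.02 to 0.07. Dhcr7 was 0.04 by limma on log2(FPKM + 1), 0.05 by total counts and -0.07 to 0.002 with a library left out. In EMT6, Sc5d was 0.02 without the low-count filter and -0.09 to 0.06 with a library left out. For the difference between lines, Pmvk was -0.02 with genes of at least 1 FPKM, -0.03 by limma on log2(FPKM + 1), -0.05 by total counts and -0.03 to 0.08 with a library left out, and Sc5d ran over -0.14 to 0.01.

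Same-numbered libraries did not deviate together (correlations -0.146 to -0.046 in EMT6 and -0.022 to 0.037 in 4T1). With 3 libraries per group this check could miss a weak shared effect, and the main tests treated the samples as unpaired. With the replicate block, 24 members were called higher and 3 lower in EMT6, and 13 higher and 6 lower in 4T1. Depth limits Abca1 and Abcg1, which had at most 18 counts in a 4T1 library.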
